A study of Mus musculus with 18 samples.

Results

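Semaphorins, plexins, neuropilins, Eph receptors and ephrins were examined as the families of guidance genes in the adult mouse retina. Members were chosen by gene symbol alone (Sema3 to Sema7, Plxna to Plxnd, Nrp1 and Nrp2, Epha and Ephb, Efna and Efnb), which gave 53 of the 35006 gene names in the count tables. They were 20 semaphorins, 9 plexins, 2 neuropilins, 14 Eph receptors and 8 ephrins. The expression filter was passed by 50 of them, and Efna4, Epha1 and Plxnb3 did not pass.

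All libraries were poly(A) RNA-seq of retina from male mice. WT animals (3 libraries) were C57BL/6J and drank water without drug. Akita animals (4 libraries) were C57BL/6-Ins2Akita/J, carry the Akita mutation in 1 copy of the insulin gene Ins2 and drank the same vehicle. In the WT + NACET group (6 libraries) and the Akita + NACET group (5 libraries), mice of these same strains took N-acetylcysteine ethyl ester (NACET), a cell-permeant cysteine donor, dissolved in what they drank, at 0.33 mg/mL, for a daily dose of 50 mg/kg. Treatment or vehicle began at 4 weeks of age and retinas were collected at 24 weeks. The Akita mutation makes insulin misfold and injures pancreatic beta cells throughout life, so that hyperglycemia is systemic and not limited to the eye. The libraries are treated as separate retinal samples, and p-values measure the spread between them.

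Semaphorins are secreted or membrane-bound ligands that turn growing axons and vessels by signalling through plexins, with neuropilins as coreceptors for most secreted semaphorins. Ephrins are membrane-anchored ligands of the Eph receptor tyrosine kinases, and contact between the cells that carry them can signal in both directions. In the retina these families are known for the map of ganglion cell axons in the brain, for the layering of inner retinal neurites and for the patterning of vessels.

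Each library held between 11495596 and 17814479 counts assigned to genes, of which the guidance genes took 0.0431% to 0.0845%. Levels are given as CPM, counts scaled to the library size after adjustment by the trimmed mean of M values (TMM). The retinal label was borne out by rod markers, whose sum was 94235 to 219527 CPM per library. No listed retinal cell type marker that was among the gene names counted was at 0 in all libraries. Of 11 amacrine cell markers listed, 8 were among those names. Libraries differed in the share of reads that fell outside annotated exons, from 9.55% to 19.8%. It was 14.9% to 17.1% in WT, 9.67% to 13.3% in Akita, 14.3% to 19.8% in Akita + NACET and 9.55% to 16.5% in WT + NACET. By an exact two-sided permutation test over 6 pairs of groups, no difference in this share passed an adjusted p of 0.05. Akita + NACET against Akita gave an exact p = 0.0159 (adjusted p = 0.0857). The difference between Akita and WT gave an exact permutation p = 0.0571 (adjusted p = 0.0857), and both of these p-values are the smallest that their group sizes allow. WT + NACET against WT and Akita + NACET against WT + NACET each gave an exact permutation p = 0.0476 (adjusted p = 0.0857). Markers of the lens and of the pigment epithelium varied between libraries of a group, with lens sums of 1.67 to 23209 CPM in WT + NACET.

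Per kilobase of exon, the retina expressed few of these genes strongly. The median of the 50 tested members was 1.60 CPM per kb, against 4.57 CPM per kb over 16071 tested genes with an annotated length. The highest ephrins were Efna5 (7.07 ± 1.42 CPM per kb, SD over 18 libraries), Efnb1 (4.65 ± 0.844) and Efna3 (3.32 ± 0.834), of which Efna5 encodes a membrane-linked ligand known for setting retinal axon order. The highest semaphorins were Sema7a (6.26 ± 0.958 CPM per kb), a lipid-anchored form that also binds integrins, Sema6a (3.20 ± 0.699), a transmembrane ligand of A-type plexins, and Sema3f (2.57 ± 0.457), a secreted ligand of Nrp2. Among receptors, Plxnb2 (5.35 ± 1.28 CPM per kb), Plxna2 (5.14 ± 0.696) and Plxnb1 (4.97 ± 1.19) stood together, and the next plexin, Plxnc1, was at 0.854 ± 0.180 CPM per kb. The Eph receptors were led by Ephb1 (4.13 ± 1.02 CPM per kb), which is known for steering uncrossed ganglion cell axons, Ephb6 (3.44 ± 0.540), which lacks kinase activity, and Epha7 (3.29 ± 0.689). Nrp1 was at 1.57 ± 0.310 and Nrp2 at 0.810 ± 0.243 CPM per kb. The 3 leading plexins differed from one another by less than the SD of each, as did Ephb6 and Epha7, while Efna5 stood above Efnb1, and Efnb1 above Efna3, by more than either SD. The 3 members that failed the filter had at most 12 reads in any library. Gene counting ignored strand, and exons of the antisense genes Gm15998 and Gm16896 overlapped 14.1% of the exonic length of Efna3 and 10.7% of that of Plxna1. In the counting mode of the study, reads lying wholly in exons shared by 2 genes go to neither, so the levels of both members may be too low.

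**Figure D1:**
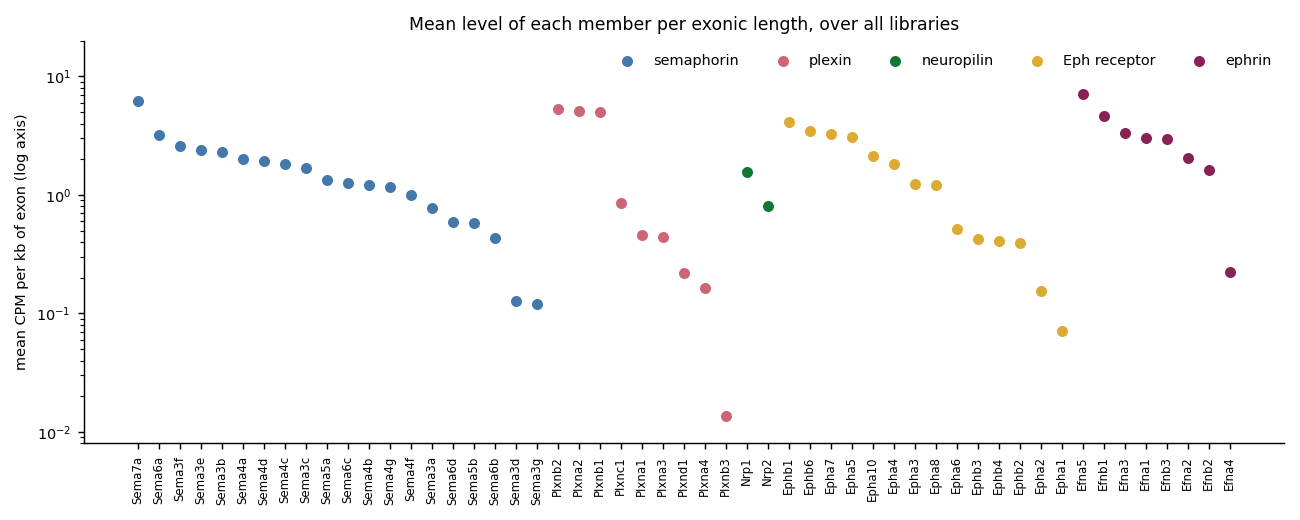
Mean level of each of the 53 members over 18 libraries, in CPM per kb of exon on a log axis, grouped by family and ordered within it. The 3 leading plexins lie between 4.97 and 5.35 CPM per kb and the other plexins at or below 0.854, while semaphorins, Eph receptors and ephrins descend more evenly.

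The comparison of Akita with WT asks how the diabetic genotype altered these genes without treatment. 5 members fell and 0 rose among the 50 tested (edgeR quasi-likelihood test, adjusted p at most 0.05), where 3.68% of all 16183 genes tested fell and 3.96% rose. They were the receptors Epha4, Plxna3 and Plxna4, the coreceptor Nrp2 and the ligand Efna5. The estimate was below 0 for 44 of the 50 and for 51.6% of all genes tested. The median log2 fold change was -0.45 over the members and -0.01 over all genes tested. An unadjusted p under 0.05 was reached by 24 members, all lower in Akita, and by 27.0% of all genes tested in either direction. Every Akita library lay below every WT library for 21 of the 50 members, as it did for 12% of all genes tested. In bulk tissue, fewer cells of a type and less RNA per cell cannot be told apart.

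Epha4, a receptor that binds ephrins of both classes, lies at chr1:77363760-77511663 on the minus strand (mm9). It was at 15.4, 17.7 and 10.1 CPM in WT and at 8.63, 8.16, 7.66 and 7.87 CPM in Akita. The Akita values formed a tight set below the lowest WT value (log2 fold change -0.83 ± 0.20, adjusted p = 0.0245, where ± is here and below the SE). Nrp2, a coreceptor for secreted semaphorins such as Sema3f, lies at chr1:62749859-62865269 on the plus strand (mm9). Its WT libraries were at 9.33, 13.9 and 8.01 CPM and its Akita libraries at 5.47, 5.39, 7.10 and 4.14 CPM. Again the groups did not overlap, and the log2 fold change was -0.90 ± 0.23 (adjusted p = 0.0270).

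Plxna3 (chrX:71574405-71590028, plus strand, mm9) and Plxna4 (chr6:32094565-32538192, minus strand, mm9) encode plexins that transmit signals of secreted semaphorins bound to neuropilins. Plxna3 measured 6.68, 5.84 and 3.43 CPM in WT against 2.31, 1.56, 3.27 and 2.32 CPM in Akita. 1 Akita library thus came close to the lowest WT library, and the log2 fold change was -1.16 ± 0.35 (adjusted p = 0.0470). Plxna4 measured 2.30, 3.04 and 3.25 CPM in WT against 1.75, 1.27, 1.005 and 1.16 CPM in Akita, from 14 to 66 reads per library over the whole series. All Akita libraries were lower, by a log2 fold change of -1.14 ± 0.33 (adjusted p = 0.0411).

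Efna5, the most abundant ephrin per kilobase, lies at chr17:62953533-63230666 on the minus strand (mm9), and the annotation gives its symbol to 2 loci that the tables hold as 1 name. Its values were 35.5, 34.9 and 29.4 CPM in WT and 23.4, 21.7, 26.1 and 17.5 CPM in Akita. The groups were apart, with a log2 fold change of -0.58 ± 0.17 (adjusted p = 0.0401).

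By family, 2 of 8 tested plexins, 1 of 2 neuropilins, 1 of 13 Eph receptors, 1 of 7 ephrins and 0 of 20 semaphorins fell. Over all genes tested 3.68% fell. With 0 to 2 calls per family, differences between families were not tested. All 13 Eph receptors and all 7 ephrins had estimates below 0, as did 51.6% of all genes tested. For the leading plexins the log2 fold change was 0.18 ± 0.17 for Plxnb1, -0.11 ± 0.22 for Plxnb2 and -0.18 ± 0.14 for Plxna2, none of which passed the test. Sema7a (0.16 ± 0.14) and Sema3f (0.23 ± 0.19) also had estimates above 0 and did not pass.

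Single libraries decided the number of calls, which was 0 without WT replicate 1, WT replicate 2 or Akita replicate 4, 2 without Akita + NACET replicate 2, 3 without Akita replicate 1 or replicate 2, and 9 without WT replicate 3 or Akita + NACET replicate 5, while the members' median stayed between -0.58 and -0.36. Calls over all genes tested changed too, from 1237 to 0 without WT replicate 1, 0 without WT replicate 2 and 234 without Akita replicate 4. When reads outside exons entered the fit as a covariate, 0 members and 0 of all genes tested were called, with a median of -0.23 over the members. That share differed between the groups as given above, and its part in the result cannot be told apart from genotype here.

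**Figure D2:**
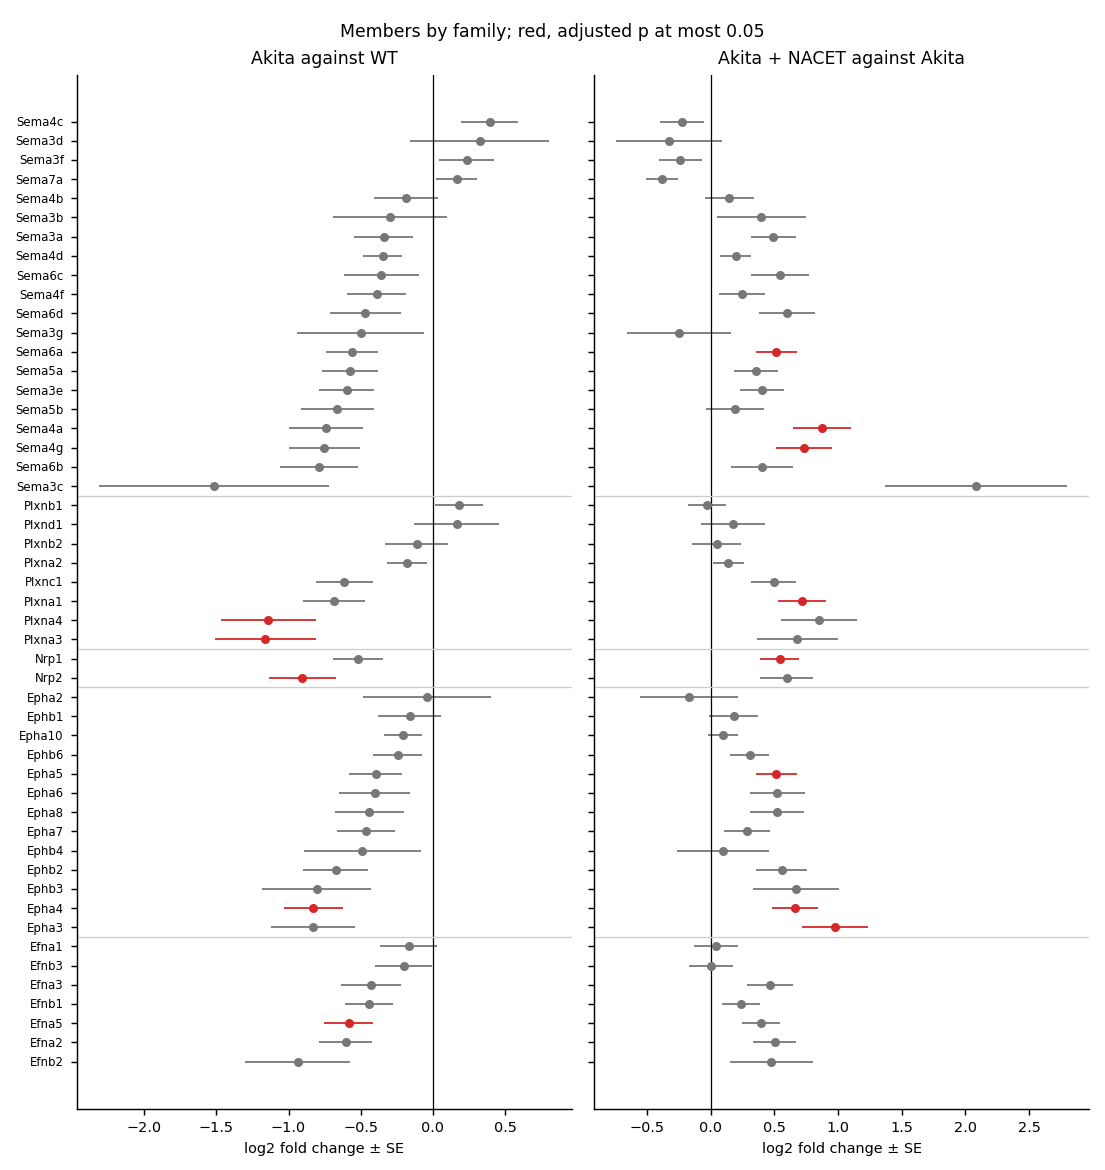
Log2 fold change with its standard error for the 50 tested members, in Akita against WT (left) and Akita + NACET against Akita (right), grouped by family and ordered by the left-hand value, with adjusted p at most 0.05 in red. Red points lie below 0 on the left (5 members) and above 0 on the right (8 members), and both panels use the same Akita libraries.

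The second comparison, of Akita + NACET with Akita, asks what treatment did in the diabetic retina. 8 members rose and 0 fell (edgeR, adjusted p at most 0.05), where 4.51% of all genes tested rose and 5.14% fell. They were the semaphorins Sema4a, Sema4g and Sema6a, the receptors Epha3, Epha4, Epha5 and Plxna1, and the coreceptor Nrp1. The estimate was above 0 for 43 of 50 members, while 50.4% of all genes tested had estimates below 0. The median log2 fold change was 0.40 over the members and 0.00 over all genes tested. An unadjusted p under 0.05 was reached by 24 members, 23 of them higher in Akita + NACET, and by 29.0% of all genes tested in either direction. The 1 that was lower was Sema7a, which did not pass (log2 fold change -0.38 with an SE of 0.12, edgeR adjusted p = 0.0534). Every treated library exceeded every Akita library for 13 members of 50, as it did for 6.69% of all genes tested. This comparison uses the same 4 Akita libraries as the one before, so the opposite signs are not independent of each other, and the values of each are given side by side.

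Among the ligands, Sema4a (chr3:88239881-88265104, minus strand, mm9) encodes a transmembrane semaphorin known to be required for photoreceptor survival. It was at 6.80, 7.47, 6.91 and 3.81 CPM in Akita and at 13.8, 11.02, 9.83, 9.88 and 13.1 CPM in Akita + NACET. No treated library reached down to the Akita values, and the log2 fold change was 0.87 ± 0.23 (adjusted p = 0.0278). Sema4g, another transmembrane semaphorin (chr19:45063591-45077887, plus strand, mm9), measured 4.98, 4.81, 3.45 and 3.81 CPM in Akita and 5.79, 8.31, 5.68, 7.21 and 8.42 CPM after treatment. The groups were again separate, with a log2 fold change of 0.73 ± 0.22 (adjusted p = 0.0425). Sema6a measured 23.4, 24.3, 26.9 and 15.3 CPM against 35.3, 33.8, 29.8, 27.3 and 34.7 CPM. The highest Akita library lay just under the lowest treated one, and the log2 fold change was 0.52 ± 0.16 (adjusted p = 0.0463).

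Of the Eph receptors, Epha4 was at 8.63, 8.16, 7.66 and 7.87 CPM in Akita and at 12.9, 12.9, 8.93, 12.7 and 16.5 CPM in Akita + NACET. It was the 1 member called in both comparisons, here with a log2 fold change of 0.66 ± 0.18 (adjusted p = 0.0325). Epha3, a receptor of ephrins of the A class, was at 5.96, 5.15, 3.20 and 3.90 CPM in Akita and 4.75, 8.66, 7.08, 9.69 and 14.6 CPM after treatment. Its groups overlapped through treated replicate 1, and the log2 fold change was 0.98 ± 0.26 (adjusted p = 0.0293). Epha5, of the same receptor class, was at 28.8, 27.9, 27.3 and 16.5 CPM against 32.9, 33.9, 32.0, 31.3 and 50.0 CPM. 1 Akita library was far below and 1 treated library far above the rest of its group, and the log2 fold change was 0.52 ± 0.16 (adjusted p = 0.0491).

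Plxna1, a plexin that works with neuropilins, was at 2.88, 3.47, 2.64 and 3.56 CPM in Akita and 5.44, 5.19, 3.83, 4.97 and 6.34 CPM in Akita + NACET. The groups did not overlap (log2 fold change 0.72 ± 0.19, adjusted p = 0.0291). Nrp1, the coreceptor of Sema3a and of vascular endothelial growth factor, measured 6.45, 8.11, 7.72 and 4.72 CPM against 9.78, 10.5, 9.51, 9.57 and 9.93 CPM. Treated libraries were close together and all above Akita (log2 fold change 0.54 ± 0.15, adjusted p = 0.0351). The 4 members that had fallen in Akita and were not called here had log2 fold changes of 0.60 ± 0.21 (Nrp2), 0.68 ± 0.32 (Plxna3), 0.85 ± 0.30 (Plxna4) and 0.40 ± 0.15 (Efna5).

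**Figure D3:**
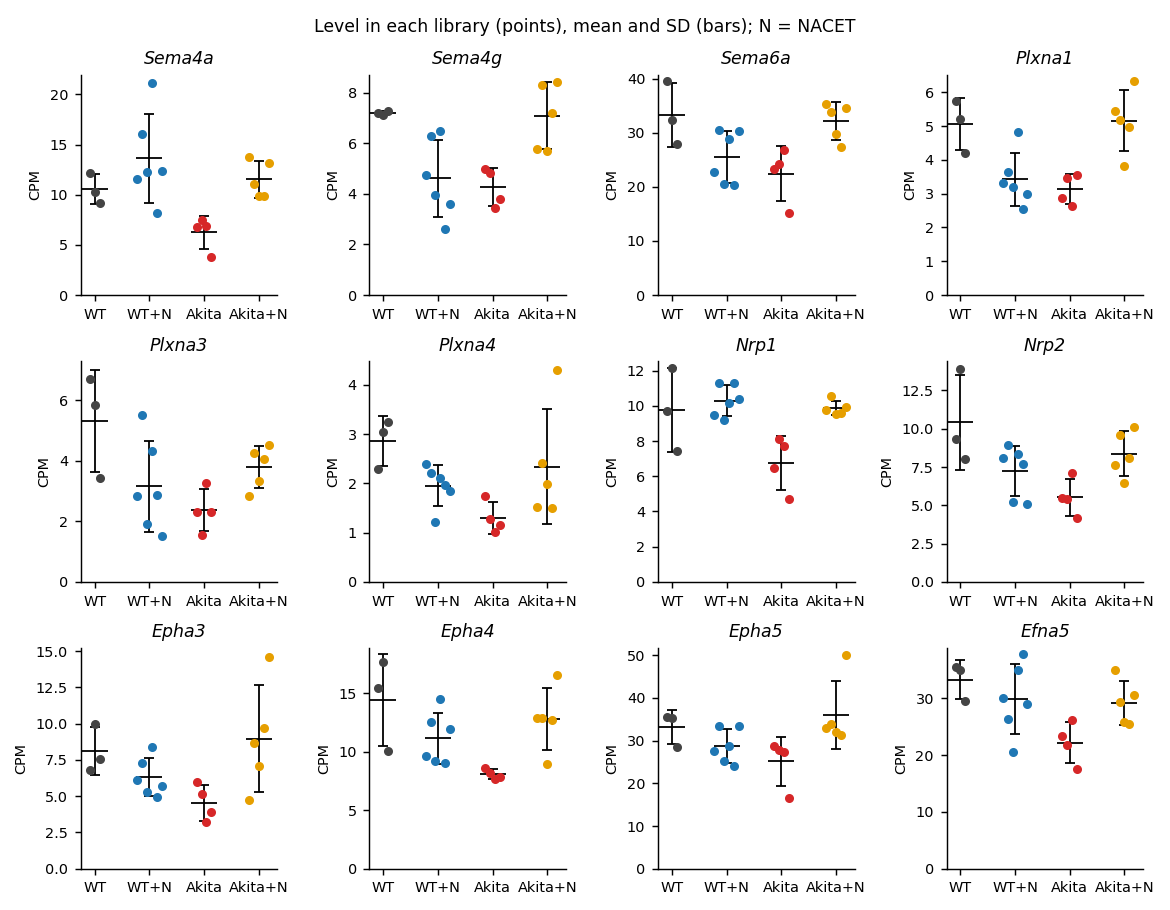
CPM in each library for the 12 members called in Akita against WT or in Akita + NACET against Akita, with 1 point per library and bars for the group mean and SD (WT n = 3, WT + NACET n = 6, Akita n = 4, Akita + NACET n = 5). Akita means are the lowest of the 4 groups in all 12 panels, and the genes were selected with the Akita libraries in view, so this order is a description.

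Calls in this comparison also turned on single libraries. They numbered 0 without Akita + NACET replicate 2, Akita + NACET replicate 5 or Akita replicate 4, 2 without Akita + NACET replicate 4 or Akita replicate 1, 4 without Akita replicate 3, and 14 without Akita + NACET replicate 3. Over all genes tested the 1562 calls became 425, 101 and 1 in the fits without Akita + NACET replicate 2, Akita + NACET replicate 5 and Akita replicate 4. When reads outside exons entered as a covariate 0 members and 0 of all genes were called, and the members' median was 0.11, with 18 of the 50 estimates below 0.

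The upstream windows of 4 of these members are shown because they include 3 that fell in Akita and 2 that rose with NACET in Akita. The antioxidant response element is the binding site of NRF2, the factor best known for inducing antioxidant genes. Each is the 250 bases before the RefSeq transcription start, written 5′ to 3′ on the strand of the gene, with coordinates in GRCm38.p6, a different build from the mm9 positions above. Capitals mark the core of the antioxidant response element (TGACNNNGC) and the GC box (GGGCGG), searched on both strands. The windows are Epha4 (chr1:77515089-77515338, minus), Nrp2 (chr1:62703067-62703316, plus), Efna5 (chr17:62881318-62881567, minus) and Sema4g (chr19:44989094-44989343, plus).
Epha4: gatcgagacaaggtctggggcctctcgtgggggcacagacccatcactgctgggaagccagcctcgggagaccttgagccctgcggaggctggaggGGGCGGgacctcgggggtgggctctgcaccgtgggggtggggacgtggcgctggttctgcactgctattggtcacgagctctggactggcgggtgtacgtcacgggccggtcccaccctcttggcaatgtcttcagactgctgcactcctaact
Nrp2: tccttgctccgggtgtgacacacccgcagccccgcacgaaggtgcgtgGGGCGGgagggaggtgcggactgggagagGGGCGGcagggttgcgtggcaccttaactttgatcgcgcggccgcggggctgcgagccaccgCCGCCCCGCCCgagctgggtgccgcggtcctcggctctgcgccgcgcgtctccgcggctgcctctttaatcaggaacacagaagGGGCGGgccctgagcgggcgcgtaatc
Efna5: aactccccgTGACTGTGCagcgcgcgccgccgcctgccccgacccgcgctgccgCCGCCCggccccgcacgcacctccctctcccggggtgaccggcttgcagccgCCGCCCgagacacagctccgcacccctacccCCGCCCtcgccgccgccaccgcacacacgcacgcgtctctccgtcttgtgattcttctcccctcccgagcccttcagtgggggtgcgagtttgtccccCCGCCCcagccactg
Sema4g: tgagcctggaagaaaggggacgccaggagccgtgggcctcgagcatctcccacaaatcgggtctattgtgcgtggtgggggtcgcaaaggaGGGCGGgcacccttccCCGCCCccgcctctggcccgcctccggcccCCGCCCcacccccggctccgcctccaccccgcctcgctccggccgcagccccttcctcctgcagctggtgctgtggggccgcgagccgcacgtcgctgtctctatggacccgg

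The Efna5 window held the response element core, 241 bases before the start, and the other 3 windows did not. Over the 61 windows found for 47 members, 7 held this core (11.5%), close to the 10.2% of all 32841 windows. A GC box was present in 46 of the 61 windows (75.4%), including all 4 shown, against 32.7% of all windows. The median number of CpG dinucleotides per window was 16 for members and 6 for all windows. A match describes the letters only.

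The interaction asks whether NACET acted differently in the 2 genotypes. It was positive for 16 members and negative for 0 (edgeR, adjusted p at most 0.05), where 10.1% of all genes tested were positive and 10.2% negative. A positive value means that the log2 change with NACET was more positive in Akita than in WT. The median over the 50 members was 0.61. Those called were the ligands Efna2, Efna3, Sema3e, Sema4g, Sema6a, Sema6b and Sema6c and the receptors Epha3, Epha4, Epha5, Ephb2, Nrp2, Plxna1, Plxna3, Plxna4 and Plxnc1. The largest estimate was that of Plxna3 (1.43 ± 0.45) and the smallest p that of Plxna1 (1.27 ± 0.27, adjusted p = 0.00537), followed by Sema4g (1.37 ± 0.31, adjusted p = 0.00748).

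Sema4g is given as an example. Between WT + NACET and WT, 4 of the 50 members had no overlap, all lower with NACET. Of those called in the interaction, they were Sema4g, Efna2 and Sema6b. The share of all genes without overlap in this comparison was not counted, so these separations have no background beside them. Sema4g was at 7.18, 7.11 and 7.29 CPM in WT and between 2.61 and 6.47 CPM (median 4.34) in WT + NACET, so that every treated WT library was lower, while in Akita every treated library was higher. Plxna1 measured 5.74, 5.20 and 4.22 CPM in WT and 2.56 to 4.82 CPM (median 3.25) in WT + NACET, and these groups overlapped. The secreted ligand Sema3e, which signals through plexin-D1, was at 24.0, 22.1 and 19.8 CPM in WT and 12.9 to 21.6 CPM (median 16.8) in WT + NACET. In Akita it measured 15.4, 14.4, 19.3 and 8.70 CPM, and in Akita + NACET 17.4, 19.98, 17.5, 19.0 and 21.7 CPM. Its interaction was 0.73 ± 0.25 (adjusted p = 0.0417).

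Plxnc1, the receptor of Sema7a, was at 7.04, 7.83 and 6.80 CPM in WT, 4.63, 4.63, 5.71 and 3.81 CPM in Akita and 6.89, 6.37, 6.51, 6.15 and 7.31 CPM in Akita + NACET. It ranged from 3.57 to 7.72 CPM (median 5.56) in WT + NACET. All Akita libraries were below all libraries of WT and of Akita + NACET, and the interaction was 0.82 ± 0.25 (adjusted p = 0.0283). Efna3, a lipid-anchored ephrin, had an interaction of 1.02 ± 0.26 (adjusted p = 0.0127), and Efna2, of the same class, of 0.89 ± 0.24 (adjusted p = 0.0153). For the transmembrane semaphorins of class 6 the values were 0.89 ± 0.23 for Sema6a, 1.05 ± 0.35 for Sema6b and 1.06 ± 0.33 for Sema6c. Ephb2, a receptor of B-class ephrins, had 0.88 ± 0.28. The count fell to 6 without WT replicate 1, to 7 without WT replicate 2, with 5 of the 7 positive, and to 10 without Akita + NACET replicate 5. In these fits, in that order, calls over all genes tested fell from 3289 to 1699, 1730 and 2449. The members' count was 0 once reads outside exons entered as a covariate, at a median of 0.22, while calls over all genes tested fell to 17.

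In WT mice treatment by itself gave 0 calls among the members (edgeR), where 0.859% of all genes tested rose and 0.624% fell. At an unadjusted p under 0.05 there were 17, 15 of them lower with NACET, against 19.5% of all genes tested in either direction. The median log2 fold change was -0.32, against -0.01 over all genes tested. Estimates were below 0 for 44 of 50 members and for 52.1% of all genes tested. The smallest p values belonged to Efna3 (-0.56 ± 0.19, adjusted p = 0.126) and Sema4g (-0.64 ± 0.22, adjusted p = 0.133). DESeq2 called 1 member, Sema3c, and 717 of all genes. Without WT replicate 2, edgeR called 2 members and 77 of all genes tested, against 240 of all genes tested in the main fit.

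No difference between Akita + NACET and WT passed the edgeR test in any member, with 0 calls, 0 at an unadjusted p under 0.05 (4.63% of all genes tested) and 0 calls by DESeq2. Over all genes tested, 0% were called higher and 0.00618% lower, so that the absence of calls was shared by nearly all genes. The median log2 fold change of the members was -0.08, with estimates from -0.75 to 0.57. Between Akita + NACET and WT + NACET, 6 members were higher and 0 lower, where 6.01% of all genes tested were higher and 7.26% lower. They were Efna3 (0.59 ± 0.16, adjusted p = 0.0230), Plxna1 (0.59 ± 0.17), Plxnb1 (0.58 ± 0.13, adjusted p = 0.00886), Plxnd1 (0.94 ± 0.23, adjusted p = 0.0145), Sema4g (0.62 ± 0.19) and Sema6c (0.71 ± 0.20). Plxnb1, the receptor of Sema4d, was at 47.1, 47.9, 44.5, 55.2 and 58.6 CPM in Akita + NACET and 27.3 to 39.3 CPM (median 34.6) in WT + NACET, without overlap. The count was 3 without Akita + NACET replicate 2, Akita + NACET replicate 5, WT + NACET replicate 3 or WT + NACET replicate 5. In these fits, in that order, calls over all genes tested fell from 2148 to 1368, 860, 1124 and 1266. The members' count was 1 (Efna3) once reads outside exons entered as a covariate, which left 194 calls over all genes tested.

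The mean of the sum over all members was lowest in Akita. The 53 members together gave 545 ± 6.55 CPM in Akita (SD, n = 4), 684 ± 92.0 in WT (n = 3), 658 ± 60.7 in Akita + NACET (n = 5) and 617 ± 62.9 in WT + NACET (n = 6). The highest Akita sum, 551 CPM, lay below the lowest of WT (585) and of Akita + NACET (583), but above the lowest of WT + NACET (521). Semaphorins summed to 159 ± 8.67 CPM in Akita and 204 ± 23.6 in WT, Eph receptors to 134 ± 12.4 and 177 ± 22.4, ephrins to 68.0 ± 5.05 and 95.9 ± 16.2, and neuropilins to 12.3 ± 2.56 and 20.2 ± 5.41. Plexins, whose sum is mostly that of Plxna2, Plxnb1 and Plxnb2, were at 172 ± 21.7 in Akita and 187 ± 36.2 in WT.

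The members' share of gene counts was set beside the share of reads outside exons. Akita libraries had 0.0431% to 0.0532% of their counts in these genes and Akita + NACET libraries 0.0595% to 0.0845%. The library with the most reads outside exons, Akita + NACET replicate 5 at 19.8%, also had the highest share of guidance genes, 0.0845%. WT + NACET replicate 3, with 10.4% outside exons, had 0.0484%, but WT + NACET replicate 6, which had the lowest share outside exons (9.55%), had 0.0610%.

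**Figure D4:**
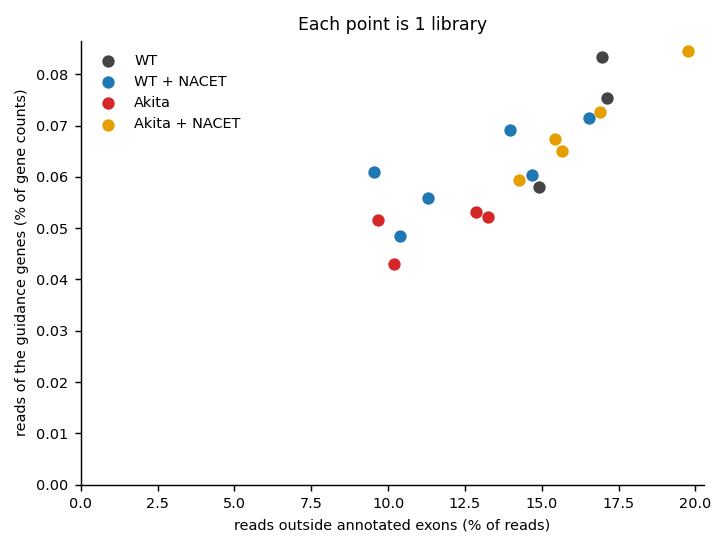
Percent of gene counts that fell on the 53 guidance genes (vertical) against percent of reads outside annotated exons (horizontal), 1 point per library, coloured by group. Akita libraries lie low on the vertical axis, from 0.0431% to 0.0532%, and Akita + NACET replicate 5 at the upper right at 0.0845%.

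These are long genes, with a median exonic length of 6.11 kb against 3.41 kb over all tested genes and a median genomic span of 39.9 kb against 20.3 kb. In Akita against WT, the quartile of all genes with the longest exonic length had a median log2 fold change of -0.08 and the shortest quartile 0.06, and 6.20% and 1.49% of them fell. The 30 members in the longest quartile had a median of -0.54. In Akita + NACET against Akita the medians were 0.09 for the longest and -0.13 for the shortest quartile, and 0.51 for the 30 members.

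Markers of other retinal cells moved in the same comparisons. Over all genes tested, 3.96% were higher and 3.68% lower in Akita than in WT. With NACET in Akita, 4.51% of all genes tested were higher and 5.14% lower. Of 10 rod markers, 3 were higher in Akita than in WT and 7 lower in Akita + NACET than in Akita, and their sum was 102356 to 139337 CPM in WT, 145588 to 219527 in Akita and 94235 to 127711 in Akita + NACET. Of 8 amacrine cell markers tested, 5 were lower in Akita than in WT, among them Pax6 (-0.53 ± 0.13), Gad1 (-0.67 ± 0.17) and Gad2 (-0.55 ± 0.15), and 1, Slc32a1 (0.57 ± 0.15), was higher with NACET in Akita. None of 12 ganglion cell markers was called, at a median of -0.39 in Akita against WT and 0.24 with NACET in Akita, and their sum was 1401 to 2195 CPM in WT, 706 to 1694 in Akita and 1224 to 1828 in Akita + NACET. For the endothelium 1 of 9 was called in each comparison, Cldn5 (-2.11 ± 0.59 and 2.14 ± 0.54), with sums of 131 to 164 CPM in WT, 99.96 to 148 in Akita and 144 to 170 in Akita + NACET. Amacrine sums were 1610 to 2341 CPM in WT, 836 to 1687 in Akita and 1283 to 1781 in Akita + NACET. Akita replicate 4 gave the lowest Akita sums for ganglion cells, endothelium and amacrine cells and the highest for rods. Replicates 1 to 3 of Akita summed to 1439 to 1694 CPM for ganglion cells and 1388 to 1687 for amacrine cells. For endothelium they summed to 133 to 148 CPM and for rods to 145588 to 160392 CPM. Among pericyte markers 1 of 7 was called in each comparison, Pdgfrb (-1.08 ± 0.32 and 1.01 ± 0.29). Cones had 0 of 9 called in Akita against WT and 4 lower with NACET in Akita, bipolar cells 0 and 1 of 9 (Grik1, 0.73 ± 0.22) and Mueller glia 1 of 9 (Aqp4, -0.54 ± 0.13) and 0. Lists for microglia, astrocytes, horizontal cells and lens had 0 called in both. The part of these cell types in the members' results was not tested.

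The partners of these families were read from lists of genes that act downstream or beside them. The shares of all genes tested are those given for the markers above. Of 26 tested semaphorin partners, 2 fell and 1 rose in Akita against WT. The 2 that fell were L1cam, an adhesion molecule that forms complexes with neuropilins (-0.70 ± 0.19, adjusted p = 0.0299), and Mical2, an enzyme that oxidises actin (-0.92 ± 0.23, adjusted p = 0.0250), while Dpysl3, a collapsin response mediator, rose (0.66 ± 0.17). With NACET in Akita 2 rose, L1cam (0.75 ± 0.17, adjusted p = 0.0203) and Nrcam (0.30 ± 0.09), and 0 fell. Of 27 partners of Eph receptors and ephrins, 2 fell in Akita, Grip1 (-0.63 ± 0.13, adjusted p = 0.0155), a scaffold that binds ephrin tails, and the phosphatase gene Ptpro (-0.75 ± 0.21), and 1 rose, Adam10 (0.30 ± 0.09), which encodes a protease that cleaves ephrins. With NACET in Akita 4 rose, led by Grip1 (0.61 ± 0.11, adjusted p = 0.0161), Anks1b (0.45 ± 0.13) and Src (0.56 ± 0.16), and Adam10 fell (-0.24 ± 0.08).

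Other guidance systems were counted in the same way, beside the shares of all genes given above (3.68% lower in Akita against WT and 4.51% higher with NACET in Akita). Of 14 tested genes of netrins and their receptors, Ntn3 (-0.92 ± 0.25) and Unc5d (-0.51 ± 0.14) fell in Akita against WT and 0 rose. With NACET in Akita, Ntn3 (1.03 ± 0.23), Unc5d (0.48 ± 0.13) and Dscam (0.68 ± 0.18) rose and 0 fell. Of 8 SLIT and ROBO genes, Slit2, a secreted repellent, fell in Akita (-1.05 ± 0.27, adjusted p = 0.0292) and rose with NACET in Akita (0.91 ± 0.24, adjusted p = 0.0316). The medians over the netrin and SLIT lists were -0.42 and -0.49 in Akita against WT and 0.47 and 0.45 with NACET in Akita. In WT + NACET against WT the netrin receptor gene Unc5a was lower (-0.91 ± 0.19, edgeR adjusted p = 0.0191), where 0.624% of all genes tested fell. So were 3 of 27 Eph partners, Acp1 (-3.74 ± 0.13), Tiam1 (-0.87 ± 0.16) and Anks1b (-0.57 ± 0.13). Acp1 was also higher in Akita + NACET than in WT + NACET (3.72 ± 0.12) and was not called with NACET in Akita. Whether NACET or another difference of the WT + NACET group goes with the low Acp1 was not tested.

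Sema3c, a secreted semaphorin, was singled out after its values were seen. Its libraries ranged from 1.27 to 40.4 CPM. Its values were 4.31, 10.6 and 3.01 CPM in WT, 1.54, 1.27, 3.89 and 1.41 CPM in Akita, 14.0, 12.3, 2.68, 13.0 and 1.502 CPM in Akita + NACET, and 9.92 to 40.4 CPM (median 23.1) in WT + NACET. Groups overlapped in each comparison given here, and by edgeR it passed none of the tests, with log2 fold changes of -1.52 ± 0.80 in Akita against WT (adjusted p = 0.236), 2.08 ± 0.71 with NACET in Akita (adjusted p = 0.0752) and 2.08 ± 0.71 with NACET in WT (adjusted p = 0.140).

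The level of Sema3c was set beside the sum of 8 pigment epithelium markers in each library, and no correlation was computed. That sum was 157, 619 and 198 CPM in WT replicates 1 to 3, in which the library with 619 CPM had the highest Sema3c. The order was reversed between WT replicates 1 and 3, with Sema3c at 4.31 and 3.01 CPM, and between Akita + NACET replicates 2 and 4. In Akita + NACET it was 703, 649, 173, 629 and 95.9 CPM, and the libraries with 173 and 95.9 CPM were those with Sema3c at 2.68 and 1.502 CPM. In WT + NACET the sums were 432 to 1509 CPM, and in Akita 65.0 to 233 CPM. None of the 8 markers was called in Akita against WT, with NACET in Akita or with NACET in WT, and their medians of log2 fold change were -1.40, 1.69 and 1.43. Sema3b, another secreted semaphorin singled out in the same way, was at 4.45, 15.99 and 3.07 CPM in WT, again highest in replicate 2, and its log2 fold change with NACET in WT was 0.87 ± 0.37 (adjusted p = 0.207). The part of the pigment epithelium in these values was not tested.

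**Figure D5:**
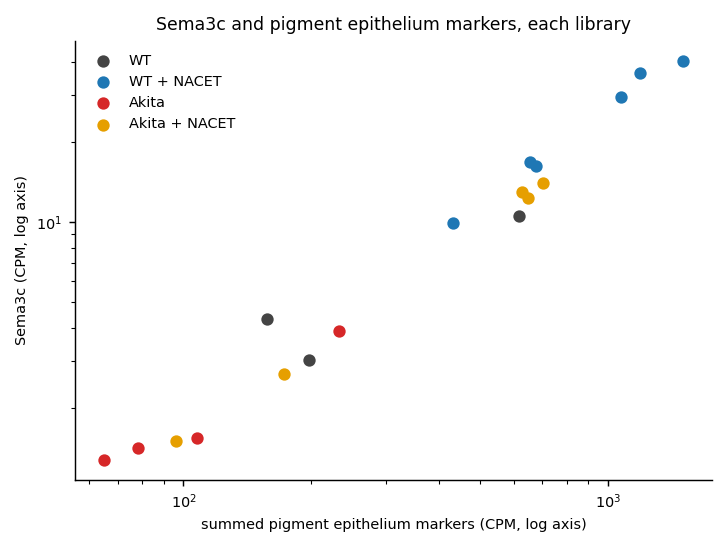
Sema3c (vertical, CPM, log axis) against the sum of 8 pigment epithelium markers (horizontal, CPM, log axis), 1 point per library, coloured by group. Points run from 1.27 CPM of Sema3c at a marker sum of 65.0 CPM to 40.4 CPM at 1509 CPM, and libraries of WT and of Akita + NACET lie at both low and middle marker sums.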

How the data were processed

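Retinal RNA libraries were made from poly(A) RNA with the TruSeq RNA v2 kit and sequenced single end. Per the submitters' processing notes and the study's methods, the authors aligned reads to mm9 with TopHat2 2.1.0 and counted reads over exons with HTSeq 0.11.2 without regard to strand. The deposited values are raw counts per gene name, 1 table per library, with summary entries that stayed out of library sizes. An entry without a name held 0.00505% to 0.00596% of gene counts and was left out, and 206 ribosomal RNA genes were removed, as the study did.

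Counts were fitted in edgeR 4.0.16 by its quasi-likelihood test (R 4.3.3, limma 3.58.1) on TMM library sizes, with all 4 groups in 1 fit and robust dispersion. The default filter (minimum count 10, minimum total 15) left 16183 genes. P-values were adjusted over all of them by Benjamini-Hochberg, with a threshold of 0.05. The biological coefficient of variation was 0.186. Differences in library shares used exact permutation tests. CPM was divided by exonic length from GENCODE vM1 (mm9). Replicates differed beyond counting noise in all 34 pairs within groups (chi-square per gene 4.54 to 50.7).

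Depth per library was 11495596 to 17814479 counts. Alternatives were DESeq2 1.42.0, its size factors, 2 groups per fit, other filters, ribosomal RNA kept, the replicate number as a block, reads outside exons as covariate, and each library left out. Named members are those called in Akita vs WT, Akita + NACET vs Akita, WT + NACET vs WT or the interaction, the 3 highest per kilobase in each family, and both neuropilins. From each partner or marker list at most 3 genes per direction and comparison are named. Members and lists were chosen with earlier results of these data known. Upstream windows came from RefSeq (GRCm38.p6) and were used for 47 of the 53 members. Member windows on chromosome 18, that of Sema6a, were not used, and the set of all windows was not restricted in this way.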

Additional observations from a re-analysis of the deposited data

Results flagged for a closer look

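A sample far from the rest of its group was looked for in 84 sets of values, and 5 were found, where chance gives about 1 in 20. Epha5 was lowest in Akita replicate 4 (16.5 CPM) and highest in Akita + NACET replicate 5 (50.0 CPM). Ephb1 was highest in WT + NACET replicate 6 (32.3 CPM) and Plxnb1 in Akita replicate 4 (64.9 CPM). Sema6b was lowest in Akita + NACET replicate 3 (1.15 CPM).

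For 16 members the interaction term of edgeR had an adjusted p of at most 0.05. In each, the log2 change with NACET was more positive in Akita than in WT. The term uses the same Akita and WT libraries as the comparisons above, and no member was called with NACET in WT. Whether other differences between the groups took part was not tested. On the log2 scale, the change with NACET in Akita minus that in WT was 0.89 for Efna2, 1.02 for Efna3, 1.34 for Epha3, 1.03 for Epha4, 0.72 for Epha5 and 0.88 for Ephb2. It was 1.11 for Nrp2, 1.27 for Plxna1, 1.43 for Plxna3, 1.39 for Plxna4 and 0.82 for Plxnc1. For the semaphorins it was 0.73 for Sema3e, 1.37 for Sema4g, 0.89 for Sema6a, 1.05 for Sema6b and 1.06 for Sema6c.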

How the results depend on the processing

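No member called in the interaction, in Akita + NACET vs Akita or in Akita vs WT changed sign under any alternative run. The alternatives reuse most of the libraries in which these members were called, so a kept sign is a description only. Some estimates came near 0, such as 0.04 at the lowest for Ephb2 in the interaction and 0.14 for Sema4g in Akita + NACET vs Akita. In Akita vs WT the 5 calls became 16 with DESeq2, 0 with only the 2 groups in the fit, 8 with a mean count of at least 50, 2 with the replicate block and 0 with reads outside exons as covariate, and 0 to 9 with 1 library left out. In Akita + NACET vs Akita the 8 calls became 4 with only the 2 groups, 0 with the replicate block and 0 with the covariate, and 0 to 14 with 1 library left out. DESeq2 gave 1 call in WT + NACET vs WT, against 0 with edgeR, and leaving out a library gave 0 to 2. Akita + NACET vs WT had 0 calls under every alternative. Akita + NACET vs WT + NACET had 6, which became 1 (Efna3) with the covariate and 3 to 8 with 1 library left out. The 16 interaction calls became 0 with the covariate and 6 to 20 with 1 library left out, and with the replicate block there were 15. Calls over all genes tested moved as well: in Akita vs WT from 1237 to 2065 with DESeq2, 148 with 2 groups, 1280 with the mean count filter, 507 with the replicate block and 0 with the covariate, and in Akita + NACET vs Akita from 1562 to 700 with 2 groups, 219 with the replicate block and 0 with the covariate. With 1 library left out, calls over all genes tested ranged from 1699 to 3524 in the interaction. They ranged from 72 to 461 in WT + NACET vs WT and from 860 to 2710 in Akita + NACET vs WT + NACET. The causes of these changes were not tested, except that fewer libraries enter a fit of 2 groups or with a library left out.

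The replicate numbers did not pair the libraries, and the labels tie them to no shared animal, litter or batch. Over 22 pairs with the same number, deviations from the group means correlated at a median of -0.02 (range -0.43 to 0.42), and 2 of 17 libraries correlated best with their own number. The block changed no call in WT + NACET vs WT or Akita + NACET vs WT. Among called members, Plxnd1 rested on 13 to 38 reads per library, Sema6b on 15 to 41 and Plxna4 on 14 to 66, and members with fewer reads, such as Sema3g with 3 to 12, were not called.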
